A study of Mus musculus with 2 samples.

Results

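Among the zinc finger protein genes of mouse morulae, 4 of 58 probes were past 2-fold on the mean of both arrays with a signal above 1000 after LIF-siRNA, against 4.35% of all gene probes. Zfand5 (zinc finger protein 216) and Zfp185 were higher than after scrambled siRNA, and Arfgap2 (zinc finger protein 289) and Trim25 (zinc finger protein 147) were lower. No zinc finger probe passed the adjusted threshold of limma. The set comprised every gene spot whose name in the array files begins with zinc finger, ring finger, PHD finger, GLI-Kruppel, tripartite motif, snail or B-cell CLL, without spots named as ESTs. It came to 59 of 8735 gene spots and to 56 of 6113 gene names. No spot had a name that begins with Zic, sal-like, ret finger or zinc-finger, which also belonged to the rule. Of the 56 names, 55 matched 1 RefSeq gene symbol, 18 of them through a former symbol, and zinc finger protein 67 matched more than 1.

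The embryos were B6CBF1 whole embryos at the morula stage, labelled as 4 d of age, from zygotes whose cytoplasm was injected with LIF-siRNA or scrambled siRNA. The labels give 1 pl of 1.0 fmol for both. The paper's text names other doses, so the dose is not settled. One label field describes untreated embryonic stem cells instead of embryos, and the titles, source names and methods, which name siRNA-treated embryos, were followed. LIF, leukemia inhibitory factor, is a cytokine that signals through JAK kinases and STAT3, and the comparison asks which genes of the early embryo respond when it is knocked down. Each of the 2 arrays carried both groups, with Cy5 for LIF-siRNA and Cy3 for scrambled siRNA, so that dye and treatment cannot be told apart. Nothing in the sources used here says that the arrays held separate pools of embryos, and p-values may measure technical spread only. The arrays held no spot named for LIF, so the knockdown itself could not be checked on them. All values below are log2 ratios of LIF-siRNA over scrambled siRNA, or processed signals, which are background-subtracted and dye-normalized brightness.

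A zinc finger is a short fold of a protein that is held in shape by a zinc ion. Fingers of the C2H2 kind usually bind DNA, and many C2H2 proteins of mammals carry a KRAB domain through which they silence transposable elements and imprinted genes in the early embryo. RING fingers instead bind ubiquitin-conjugating enzymes, PHD fingers read histone tails, and A20, AN1 and ArfGAP fingers act in the cytoplasm on ubiquitin or on small GTPases. One member is not a zinc finger protein at all, since the rule on names took in B-cell CLL/lymphoma 7B (Bcl7b), a subunit of BAF chromatin remodelers.

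Of the 7 embryo marker genes listed, 4 had a spot by name, and Pou5f1, which encodes OCT4, had signals of 7313 to 8862 on both arrays in both groups. Sox2 was lower after LIF-siRNA, by 3.00 on the log2 scale on array 1 and by 1.69 on array 2. Keratin 8, of the trophectoderm, was lower by 1.73 and 2.16, while the remaining marker, cadherin 1, was higher by 0.69 and 0.26. Markers of other cells were dim. The 2 of 4 listed cumulus cell genes with a spot summed to 471 and 664 after LIF-siRNA and to 375 and 269 after scrambled siRNA. Of these, pentaxin related gene was higher on both arrays (0.67 and 1.68). The other, tumor necrosis factor induced protein 6, had opposite ratios (-0.63 and 0.23). The oviduct epithelium gene oviductal glycoprotein 1 was at 508 and 624 against 303 and 290. The 1 of 2 listed blood genes found on the arrays summed over its spots to between 127 and 185, and these had mean ratios of -0.19 and 0.76. The part of these cells in the results was not tested. The median signal over background was 4.83 to 6.60 over all gene spots and 7.41 to 10.1 over the zinc finger spots.

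The sequences just before the start sites are shown for the genes whose ratio was past 2-fold on both arrays and whose promoter is in the RefSeq table, since these are the members with the largest measured differences in the same direction. Each run holds the 250 bases before the start in GRCm38.p6, on the + strand, 5′ to 3′. The array files carry no coordinates. Capitals mark the GC box (GGGCGG or its complement CCGCCC), a binding motif of SP1-like zinc finger proteins, and the E-box CAGGTG (complement CACCTG), the motif that Snail proteins bind. Zfand5 lies at chr19:21272028-21272277, Snai1 at chr2:167537945-167538194, Trim25 at chr11:88999153-88999402 and Arfgap2 at chr2:91264865-91265114.
Zfand5: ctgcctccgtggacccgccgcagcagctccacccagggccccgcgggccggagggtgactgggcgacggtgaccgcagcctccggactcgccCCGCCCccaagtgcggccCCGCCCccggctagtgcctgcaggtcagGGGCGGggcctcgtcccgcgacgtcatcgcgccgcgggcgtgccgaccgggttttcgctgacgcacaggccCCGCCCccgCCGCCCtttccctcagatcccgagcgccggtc
Snai1: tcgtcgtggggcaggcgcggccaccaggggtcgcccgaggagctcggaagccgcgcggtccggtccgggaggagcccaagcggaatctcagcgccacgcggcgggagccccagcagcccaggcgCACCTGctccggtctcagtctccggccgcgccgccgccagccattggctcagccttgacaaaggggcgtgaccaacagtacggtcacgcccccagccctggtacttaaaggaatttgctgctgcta
Trim25: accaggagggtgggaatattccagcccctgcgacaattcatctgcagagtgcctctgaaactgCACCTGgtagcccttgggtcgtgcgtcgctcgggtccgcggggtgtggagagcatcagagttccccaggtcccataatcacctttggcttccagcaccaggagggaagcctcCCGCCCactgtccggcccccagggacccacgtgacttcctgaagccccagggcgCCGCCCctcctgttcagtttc
Arfgap2: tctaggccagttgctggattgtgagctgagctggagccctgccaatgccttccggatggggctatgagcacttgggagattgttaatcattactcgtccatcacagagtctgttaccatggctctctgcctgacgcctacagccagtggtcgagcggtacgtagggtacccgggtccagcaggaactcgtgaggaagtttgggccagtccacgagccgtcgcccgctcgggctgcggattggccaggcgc
The Zfand5 run holds 5 GC boxes, that of Trim25 holds 2 GC boxes and 1 E-box, that of Snai1 holds 1 E-box, and that of Arfgap2 holds neither. None of these runs holds the STAT motif TTCNNNGAA, which reads the same on both strands. Over all 32851 promoters of the table the shares with a match on either strand were 32.7% for the GC box, 17.2% for the E-box and 7.02% for the STAT motif. Over the 66 promoters of 44 member genes they were 47.0%, 10.6% and 7.58%. The median GC content was 57.4% in the members' promoters and 52.4% in all. A match only says that the letters are in this window.

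As a set, the zinc finger probes had ratios close to those of the whole array. A probe was compared if 1 or both of its channels were well above background on each array and it had no outlier mark. Of the 57 such members, 23 were higher on both arrays (40.4%, against 36.7% of all 8079 probes compared), 22 were lower on both (38.6%, against 36.8%) and 12 had opposite directions (21.1%, against 26.5%), so that 45 kept 1 direction (78.9%, against 73.5%). Their median of the mean log2 ratio was 0.05, with quartiles of -0.48 and 0.45, and that of all probes was 0.00, with quartiles of -0.40 and 0.39. Within 1.5-fold lay 37 of 57 members (64.9%), against 66.8% of all probes. Across the 57 members, which are not independent replicates, the ratios of array 1 and array 2 correlated with a Pearson's r of 0.74 and a Spearman's rho of 0.74, against 0.64 and 0.63 over all probes. In the 27 members past the signal threshold r was 0.86, and in the 30 dimmer ones it was 0.61.

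**Figure D1:**
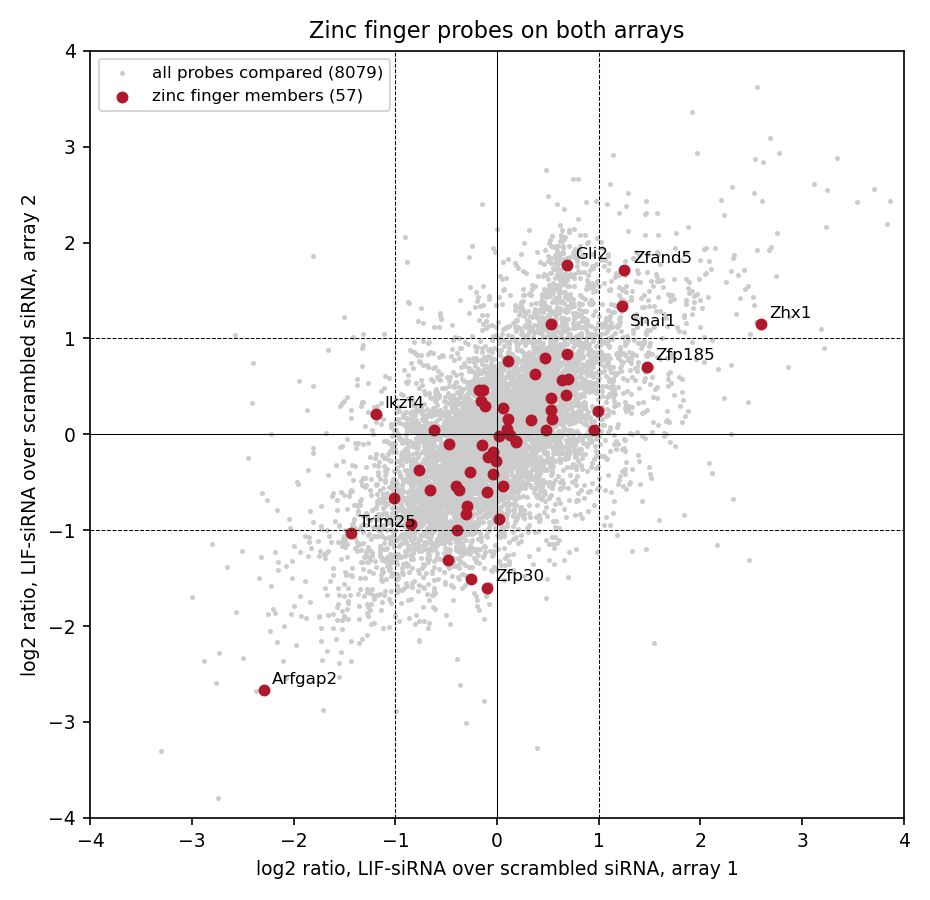
Log2 ratio of LIF-siRNA over scrambled siRNA on array 1 (x axis) and array 2 (y axis) for the 57 zinc finger probes (red) and all 8079 probes compared (grey, a few lie outside the axes), with dashed lines at 2-fold. Arfgap2 lies far to the lower left, Zfand5, Snai1 and Zhx1 lie past 2-fold on both axes, and most members lie within the grey cloud around 0.

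The thresholds were a 2-fold difference in either direction, on the geometric mean ratio of both arrays, with at least 1 dye whose processed signal averaged above 1000. The methods do not say how arrays were combined or which signal was meant, so the thresholds as taken here may select other genes than the study did. With them 2 of 58 zinc finger probes were higher (3.45%, against 2.16% of all probes) and 2 were lower (3.45%, against 2.19%). Among the 27 members past the signal threshold this was 7.41% in each direction, against 5.33% and 5.42% of all such probes. Regardless of signal, 3 members were past 2-fold higher on both arrays (5.17%, against 2.61%) and 2 were past it lower on both (3.45%, against 2.87%). In limma with Benjamini-Hochberg adjustment, 0 of 57 members had an adjusted p under 0.05 (0% of all probes), and 17 had an unadjusted p under 0.05 (29.8%, against 30.7%), 10 of them higher (17.5%, against 15.9%) and 7 lower (12.3%, against 14.8%). The smallest adjusted p of a member, 0.058, was also the smallest of all probes. The count of calls moved with the fit, to 8 members with each array centred on its median (17.7% of all probes) and to 8 with an intensity trend in the variance (14% of all probes). It was 2 with normexp and loess (1.96% of all probes) and 5 of 27 over probes past the signal threshold (18.7% of all such probes).

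A mixed group of 7 members with various other folds or functions, placed in no other role group, had 5 higher on both arrays (against 36.7% of all probes) and 2 lower on both (against 36.8%), with a median of 0.44. The grouping by role was drawn up for this description with the values known. Arfgap2 encodes a GTPase-activating protein for ARF in Golgi transport, and its zinc finger is part of the ArfGAP domain. Its signal was 2479 and 3936 after scrambled siRNA and 506 and 621 after LIF-siRNA on arrays 1 and 2. The groups did not overlap, and the log2 ratios of -2.29 and -2.66 gave a mean of -2.48 ± 0.26 (SD, n = 2 arrays), 5.57-fold lower, the lowest of the set (limma SE 0.22, adjusted p = 0.058).

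Zfand5 encodes a protein with A20 and AN1 fingers that binds ubiquitin and activates the proteasome. Its signal was 6947 and 5154 after scrambled siRNA and 16553 and 16940 after LIF-siRNA. Both LIF-siRNA values stood above both scrambled values, with log2 ratios of 1.25 and 1.72 and a mean of 1.48 ± 0.33, 2.80-fold higher (limma SE 0.23, adjusted p = 0.061). Zfp185, an actin-associated protein with a LIM domain, was at 464 and 925 after scrambled siRNA and at 1287 and 1509 after LIF-siRNA. Its groups did not overlap either, but array 1 was past 2-fold (1.47) and array 2 was not (0.71), and the mean of 1.09 ± 0.54 (adjusted p = 0.092) fell to 0.98, under 2-fold, both with normexp and loess and with each array centred on its median.

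The other 4 of this group differed less. Bcl7b was higher on both arrays, by 0.70 and 0.57 (mean 0.64 ± 0.09, adjusted p = 0.13). Zmym3 (zinc finger protein 261), a subunit of a histone deacetylase complex, had ratios of 0.10 and 0.77. Sf1 (zinc finger protein 162), which binds the branch point of introns during splicing, had ratios of 0.33 and 0.15. The only PHD finger member, the histone demethylase Phf2, was at 442 and 415 after LIF-siRNA and at 472 and 491 after scrambled siRNA, with a mean log2 ratio of -0.17 ± 0.10, within 1.5-fold.

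**Figure D2:**
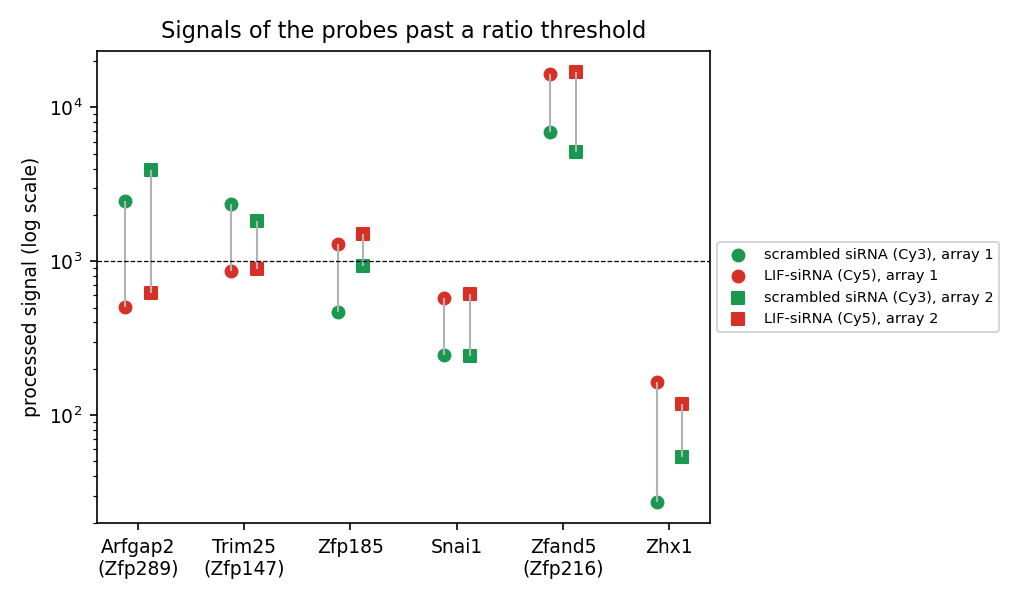
Processed signal on a log scale for the 6 zinc finger probes past the thresholds or past 2-fold on both arrays, with green points for scrambled siRNA (Cy3), red points for LIF-siRNA (Cy5), circles for array 1 and squares for array 2. The dashed line is the signal threshold of 1000, under which both Snai1 and Zhx1 lie in all channels. In each gene the red and green points do not overlap, which the choice of these genes by ratio favours.

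Of the 7 developmental and homeodomain factors, 5 could be compared, and 4 of these were higher on both arrays (against 36.7% of all probes), with a median of 1.23, or 0.51 with normexp and loess. Zhx1 and Gli2, which sets the median, were each compared on 1 array through the LIF-siRNA channel alone, so the count and the median describe these probes and support no direction for the group. On array 1 alone the median was 0.69 and on array 2 alone 1.15. All of them had mean processed signals under 1000, so none was counted with the thresholds as taken here. Snai1 (snail homolog), the transcriptional repressor that lowers cadherin 1 in epithelial to mesenchymal transition, was at 246 and 243 after scrambled siRNA and at 577 and 617 after LIF-siRNA. Both arrays gave nearly the same ratio, 1.23 and 1.34, with a mean of 1.28 ± 0.08, 2.44-fold higher (limma SE 0.21, adjusted p = 0.061), and of 1.04 with normexp and loess. Cadherin 1 itself was at 8278 and 7505 after LIF-siRNA and at 5143 and 6267 after scrambled siRNA (log2 ratios of 0.69 and 0.26).

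Zhx1, a repressor with zinc fingers and homeodomains, had the highest mean ratio of the set, but its signals were dim. It was at 27.3 and 53.5 after scrambled siRNA and at 165 and 118 after LIF-siRNA, and the scrambled channel was well above background on 1 of 2 arrays. Its log2 ratios of 2.59 and 1.15 were among the 3 most unequal between the arrays, and the mean of 1.87 ± 1.02 (adjusted p = 0.077) fell to 0.74, under 2-fold, with normexp and loess, whose offset of 50 pulls dim ratios towards 0.

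Gli1 and Gli2 encode the transcription factors through which Hedgehog signals act. Gli2 was at 130 and 121 after LIF-siRNA and at 80.7 and 35.7 after scrambled siRNA, the latter well above background on 1 of 2 arrays, with log2 ratios of 0.69 and 1.76 (mean 1.23 ± 0.76, adjusted p = 0.096, and 0.51 with normexp and loess). Gli1 was at 62.9 and 49.6 against 45.0 and 48.1, with ratios of 0.48 and 0.04 (adjusted p = 0.48). The Ikaros family member Ikzf4 (zinc finger protein, subfamily 1A, 4) was dim and had opposite ratios, -1.19 and 0.21. Zeb1 (zinc finger homeobox 1a), another repressor of cadherin 1, was not well above background in either channel on either array, and Zfpm2 (zinc finger protein, multitype 2), a cofactor of GATA factors, had an outlier mark on array 1 and opposite ratios of 1.62 and -0.89, so neither was compared.

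**Figure D3:**
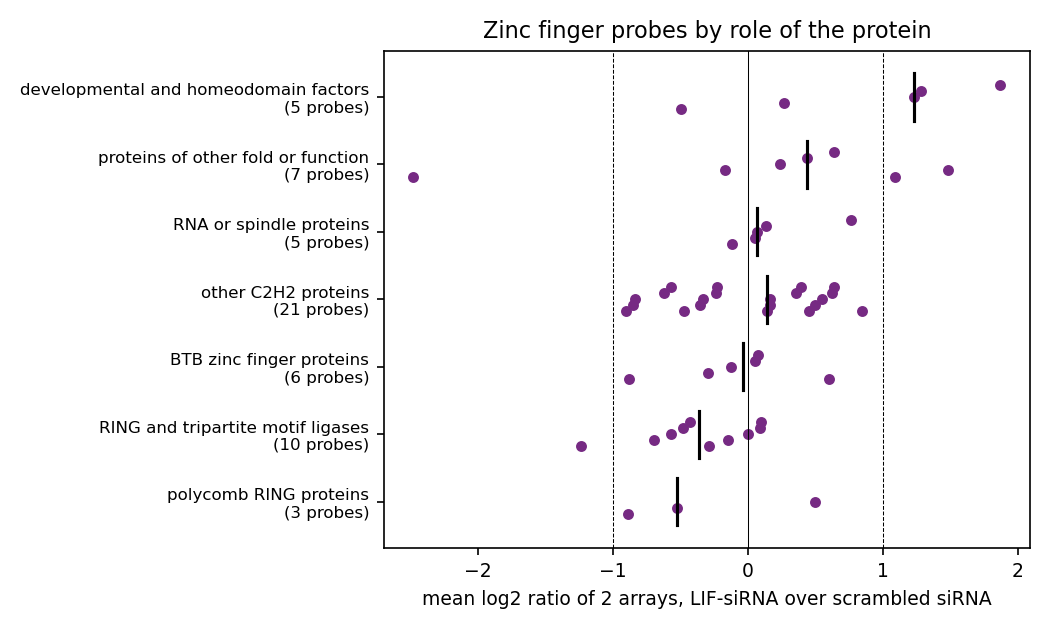
Mean log2 ratio of 2 arrays, LIF-siRNA over scrambled siRNA (x axis), for the 57 zinc finger probes by the role of the protein (y axis), each point a probe and each black bar the median of its group, with dashed lines at 2-fold. The medians run from -0.52 in the 3 polycomb RING proteins to 1.23 in the 5 developmental and homeodomain factors, and the 21 other C2H2 proteins spread on both sides of 0 without passing 2-fold.

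The RING and tripartite motif ligases, which attach ubiquitin to other proteins, are given here without the polycomb RING proteins, a division made with the values known. Of 10 probes, 0 were higher on both arrays (against 36.7% of all probes), 6 were lower on both (against 36.8%) and 4 had opposite directions, with a median of -0.36. Grouped by name alone, the 9 probes called ring finger or tripartite motif, Rnf2 and Ring1 among them, had 1 higher and 5 lower on both, with a median of -0.29, or -0.15 on array 1 alone. With normexp and loess 1 of the 10 was higher and 6 were lower on both. Trim25, a ligase of the interferon response that acts on the RNA sensor RIG-I, was at 2355 and 1826 after scrambled siRNA and at 870 and 894 after LIF-siRNA. It was lower without overlap, with log2 ratios of -1.44 and -1.03 and a mean of -1.23 ± 0.29, 2.35-fold lower (limma SE 0.23, adjusted p = 0.067), and was the only ligase past the thresholds.

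The other 5 ligases that were lower on both arrays were within 2-fold on the mean. Rnf10 was at 3103 and 3663 after scrambled siRNA and at 2366 and 1829 after LIF-siRNA, with ratios of -0.39 and -1.0. Rnf19a, which ligates ubiquitin in a relay with its RING fingers, had a mean of -0.57. The imprinted gene Mkrn3 (zinc finger protein 127) had a mean of -0.48. A brighter spot, named makorin, ring finger protein, 3, fell outside the set by its name. That spot had opposite ratios of -0.18 and 0.28 (mean 0.05), so no single direction can be given for Mkrn3. Rnf11 and Rnf13 had means of -0.29 and -0.15. The 4 without a shared direction were Trim2, Trim3, Trim21, which binds antibodies in the cytoplasm, and Rnf103, which was nearest to 0 of the whole set with ratios of 0.02 and -0.02.

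The 3 polycomb RING proteins, which build the complex that adds ubiquitin to histone H2A at silent genes, did not share a direction. Rnf2, its catalytic subunit, was higher on both arrays (0.37 and 0.63), with signals of 7400 and 9335 after LIF-siRNA and of 5731 and 6048 after scrambled siRNA. Its paralog Ring1 was lower on both (-0.29 and -0.75). Pcgf2 (zinc finger protein 144), a partner of both, was at 173 and 206 after LIF-siRNA and at 311 and 396 after scrambled siRNA, without overlap and with close ratios of -0.84 and -0.94 (mean -0.89 ± 0.07, 1.85-fold lower, adjusted p = 0.086). None of the 3 was past 2-fold, and their median of -0.52 was -0.29 without replicate 2 and -0.75 without replicate 1. Over probes past the signal threshold, which left Rnf2 alone, the value was 0.50.

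The largest role group, 21 probes of 20 other C2H2 genes, had no probe past 2-fold on the mean. Regardless of signal, 6.55% of all probes were past it higher and 5.13% lower. Of the 21 probes, 9 were higher on both arrays (against 36.7% of all probes), 9 were lower on both (against 36.8%) and 3 had opposite directions. Their means ran from -0.90 to 0.84. Their median of 0.14 had no stable sign, since it was -0.04 on array 1 alone, 0.05 on array 2 alone and 0.02 with median centring. Zfp42, known as REX1 and a marker of pluripotent cells, was at 31231 and 28609 after LIF-siRNA and at 21414 and 25562 after scrambled siRNA, and was one of the 3 brightest members. Both arrays gave it a higher ratio without overlap of the signals, by 0.54 and 0.16, and the mean of 0.35 ± 0.27 (adjusted p = 0.34) was within 1.5-fold.

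Zfp57, the KRAB protein that keeps methylation at imprinted regions, was near background. It was at 32.6 and 23.2 after LIF-siRNA, well above background on 1 of 2 arrays, and at 45.8 and 57.7 after scrambled siRNA, with log2 ratios of -0.49 and -1.31. The mean of -0.90 ± 0.58 (adjusted p = 0.12) became -0.30 with normexp and loess. Zfp30 was another dim member, with ratios of -0.10 and -1.60 that differed more between the arrays than those of nearly all others. Of the brighter members, Zfp296, which is expressed in embryonic stem cells, was lower on both arrays (-0.31 and -0.83) and Zfx, an X-linked factor needed for stem cell self-renewal, was higher on both (0.68 and 0.41). Zfp292 (-1.01 and -0.66), Zfp235 (0.47 and 0.79), Zfp46 (1.00 and 0.25) and Zfp62 (0.95 and 0.05) were the remaining members of this group with 1 spot and a mean of about 0.50 or more in size, and were named after their values were seen.

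Of the 6 BTB zinc finger probes, whose proteins pair through a BTB domain, 2 were higher on both arrays (against 36.7% of all probes). Another 2 were lower on both (against 36.8%) and 2 had opposite directions. The median of the 6 was -0.04, or -0.14 with median centring. Zbtb18 (zinc finger protein 238) was higher on both (0.63 and 0.57). Zinc finger protein 67, placed here because Zbtb7b is one of the genes its name matches, was at 907 and 524 after LIF-siRNA and at 1083 and 1487 after scrambled siRNA. Its ratio was -0.26 on array 1 and -1.51 on array 2, so that the mean of -0.88 ± 0.88 (adjusted p = 0.175) rests on the second array.

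**Figure D4:**
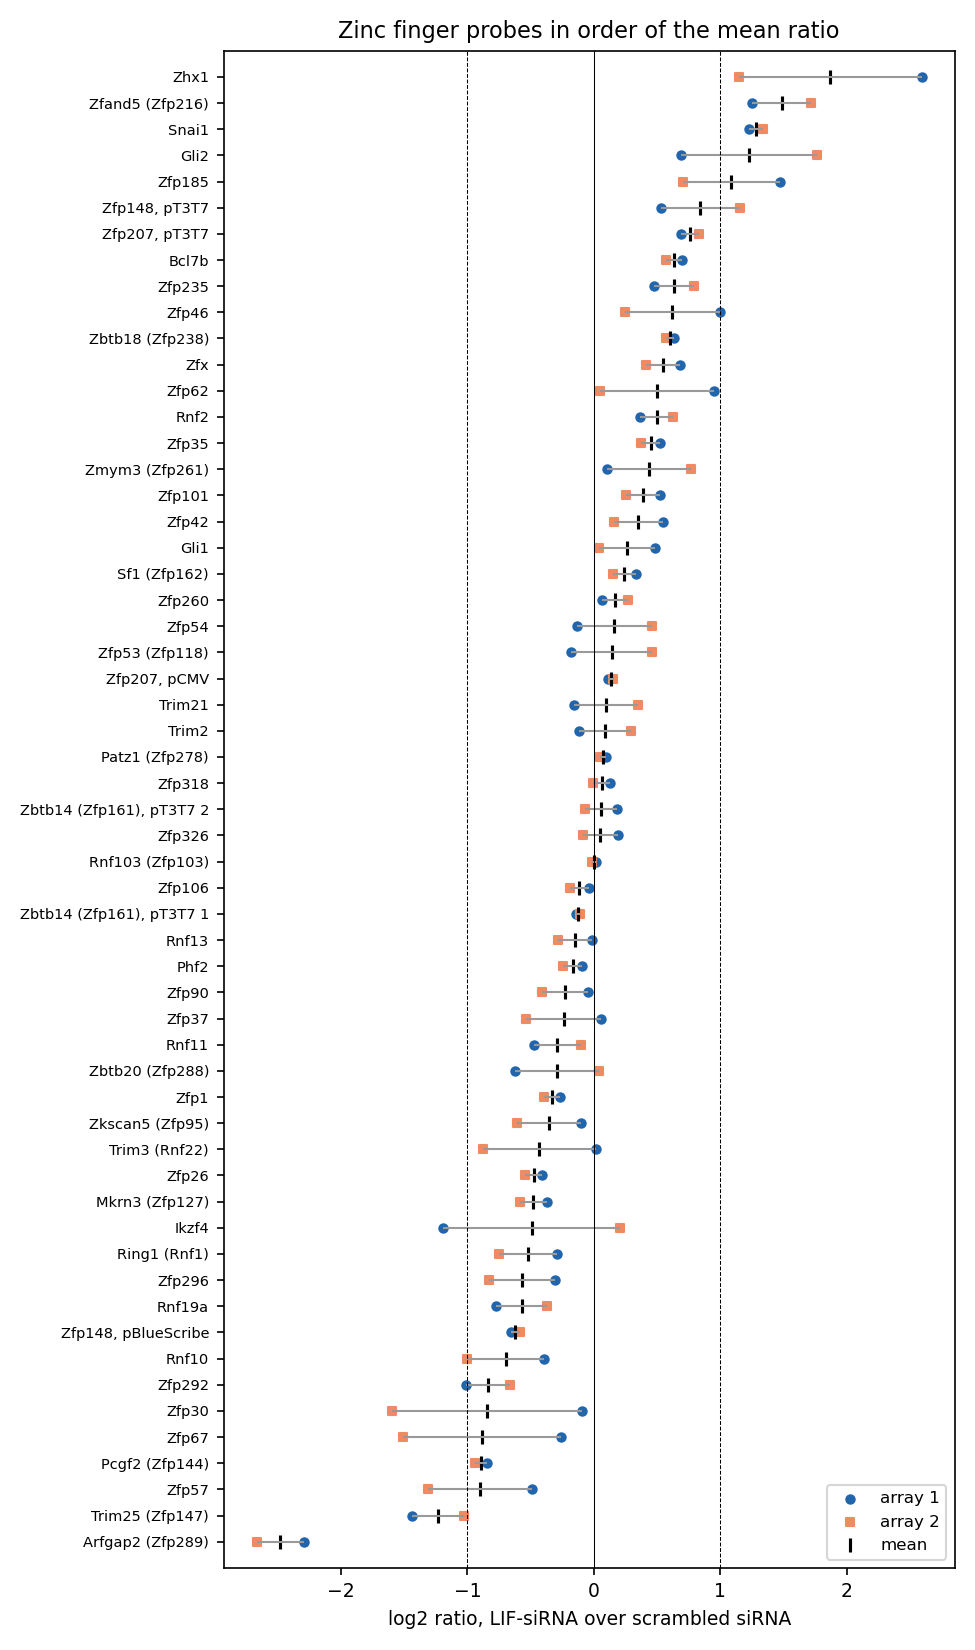
Log2 ratio of LIF-siRNA over scrambled siRNA (x axis) of each of the 57 zinc finger probes compared, in order of the mean, with array 1 as blue circles, array 2 as orange squares and the mean as a black bar, and former names in brackets. The order runs from Arfgap2 (-2.48) to Zhx1 (1.87), and the arrays lie far apart for Zhx1, Zfp30 and Ikzf4.

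The probes on RNA or spindle proteins included Zfp106, an RNA-binding protein at 9980 to 12231 in all channels with a mean ratio of -0.11, and Zfp207, which loads a checkpoint protein at kinetochores. Zfp207 had one of the 3 gene names of the set with 2 cDNA spots. Its spot in the pT3T7-Pac vector had ratios of 0.69 and 0.83 (mean 0.76 ± 0.10, adjusted p = 0.10), while that in pCMV-SPORT, one of the 3 brightest members, had ratios of 0.11 and 0.16 (mean 0.13 ± 0.03, adjusted p = 0.69). The spots shared the direction with the deposited ratios but differed in size on both arrays. With each array centred on its median the pCMV-SPORT spot turned below 0, to -0.01.

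Zfp148, a factor that binds GC-rich promoters, had 2 spots with opposite directions. The spot in the pBlueScribe vector was at 1589 and 1955 after LIF-siRNA and at 2506 and 2929 after scrambled siRNA, with ratios of -0.66 and -0.58 (mean -0.62 ± 0.05, adjusted p = 0.13). The spot in the pT3T7-Pac vector was at 3864 and 4754 after LIF-siRNA and at 2680 and 2136 after scrambled siRNA, with ratios of 0.53 and 1.15 (mean 0.84 ± 0.44, adjusted p = 0.11). Neither spot's signals overlapped between the groups, and no single direction can be given for the gene. The means differed by 1.46, more than in 96.8% of the 155 gene names with 2 spots of 1 cluster, whose median difference was 0.32, and 31 of these pairs (20.0%) had opposite directions on both arrays. Zbtb14 (zinc finger protein 161) had means of 0.05 and -0.13 on its spots, both within 1.5-fold. The files give no sequence of the cDNA clones, and which part of a transcript each spot holds, or how much it binds related fingers, was not tested.

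**Figure D5:**
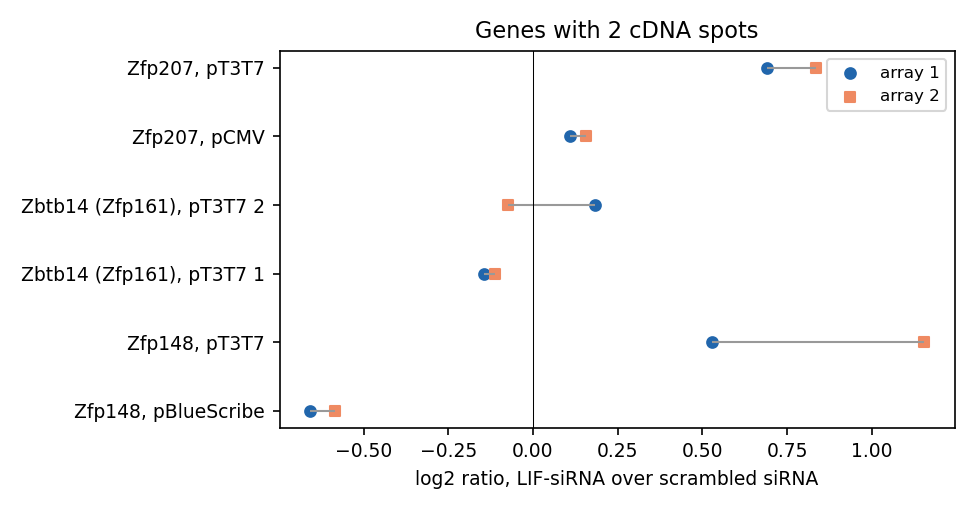
Log2 ratio of LIF-siRNA over scrambled siRNA (x axis) of both cDNA spots (y axis, with the vector of the clone) of Zfp207, Zbtb14 (zinc finger protein 161) and Zfp148, with array 1 as blue circles and array 2 as orange squares. The Zfp148 spots lie on opposite sides of 0 on both arrays, and those of Zfp207 lie on the same side.

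Zinc finger transcription factors under other names, the Kruppel-like, GATA, GFI, SP1, CTCF and YY1 factors, had 15 spots, all of which could be compared. Of these, 4 were higher on both arrays (against 36.7% of all probes), 5 were lower on both (against 36.8%) and 6 had opposite directions. Their median was -0.04. Taken by array, that median was 0.01 (array 1) and -0.50 (array 2). With the same thresholds, which 2.16% of all probes passed higher and 2.19% lower, 1 was higher, GATA-binding protein 1 (0.61 and 1.49), and 1 was lower, Kruppel-like factor 5 (-1.0 and -1.89), a factor of the trophectoderm and inner cell mass. Regardless of signal, 0 were past 2-fold higher on both arrays (against 2.61% of all probes). Past it lower on both were 3 (against 2.87%), Kruppel-like factor 5, GATA-binding protein 6 (-1.34 and -1.21) and the dim Kruppel-like factor 1 (-1.85 and -1.13). The smallest adjusted p in limma, 0.061, was that of GATA-binding protein 6. Of 29 spots named as ESTs similar to finger proteins, 23 could be compared. Among these, 9 were higher on both arrays (against 36.7% of all probes) and 9 were lower on both (against 36.8%). Past the thresholds, 2 were higher (against 2.16% of all probes) and 1 was lower (against 2.19%). Of 12 spots with finger elsewhere in the name, 2 were higher on both arrays (against 36.7%) and 7 were lower on both (against 36.8%). Their median was -0.29 and none was past the thresholds.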

How the data were processed

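Total RNA of morulae was labelled and hybridised by the authors to Agilent two-color mouse cDNA arrays. The deposited intensity columns are scanner output of Feature Extraction A.7.5.1 per the file headers, with a processed signal that the authors' software background-subtracted and dye-normalized. The deposited log10 ratio of Cy5 over Cy3 was converted to log2. The deposited series table gives a mean log2 brightness over both dyes and no ratio, and was not used. The members and lists were chosen with earlier results of these data known.

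Spots with an outlier mark (23 gene spots, 1 a member) were left out, and 0 gene spots were saturated. Up- and down-expression genes were counted with the methods' thresholds, applied to the geometric mean ratio and the mean processed signal. limma 3.58.1 (R 4.3.3; lmFit and eBayes, intercept only, two-sided, Benjamini-Hochberg over 8079 probes, threshold 0.05) was run on the log2 ratios of both arrays, and the code was also checked on simulated data. Tables and plots were made with pandas 2.3.3 and matplotlib 3.10.9 in Python 3.11.15. Named genes are probes past the thresholds or past 2-fold on both arrays, and the 5 highest and 5 lowest. They also include the 3 brightest, the 3 most unequal between arrays, and developmental and PHD members. All spots of a gene name with several were named. Picking by ratio favours groups without overlap, so a lack of overlap is no separate support. Alternatives were normexp (offset 50) with loess, median centring, outliers kept, each replicate left out, other signal rules and dim-probe filters, averaged spots, an intensity trend and the methods' t-test.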

Additional observations from a re-analysis of the deposited data

How the results depend on the processing

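The count of zinc finger probes past the thresholds higher, 2, became 1 with normexp and loess (1.78% of all probes), 1 with median centring (1.55%) and 1 when both arrays had to pass (0.941%), without Zfp185, and 5 without the signal threshold (6.55%) or with well above background in its place (6.45%; Snai1, Gli2 and Zhx1 were added). It was 2 with either replicate left out, but without replicate 1 the pT3T7-Pac spot of Zfp148 stood in place of Zfp185. The count lower, 2, ranged from 2 to 4 with a replicate left out, and was 4 without replicate 1 (3.05%), where Rnf10 and zinc finger protein 67 were past it on array 2 alone. Calls by limma, 0, became 2 with normexp and loess (Arfgap2 and Zfand5), 8 with median centring, 5 over probes past the signal threshold and 8 with an intensity trend, and stayed at 0 in the methods' t-test, with dim probes left in and with outliers kept. That t-test gave 5 members an unadjusted p under 0.05 (8.77%, against 10.7% of all probes). Probes higher on both arrays, 23, came to 14 and those lower, 22, to 10 over the 27 members past the signal threshold, against 1405 and 1376 of all 3527 such probes. The median, 0.05, became -0.044 with median centring and 0.13 over probes past the signal threshold, and ranged from 0.015 to 0.041 with a replicate left out. Normexp and loess turned the sign of the mean of 0 of 57 members and median centring that of 6, the largest of which was 0.23 in size. The cause of these shifts was not tested. limma could not be run with a replicate left out, since 1 array leaves no spread. The ratio within an array already pairs the groups, so no further replicate block was fitted. Ratios of members not well above background in a channel rest on background subtraction, and 2 arrays limit the precision.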
